A study of Mus musculus with 2 samples.

Results

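The transcripts described here encode the proteasome of mouse liver, its constitutive and inducible catalytic subunits, its regulatory particles and its assembly chaperones. They were chosen by symbol, as every gene whose name begins with Psm, a letter from a to g and a digit. This rule found 49 genes with 53 probes among 19318 named genes and 23469 gene probes on the array. Psmc3ip, a meiotic recombination cofactor, and Psme3ip1, a partner of the activator PA28-gamma, match the rule by name without being a subunit or chaperone, which leaves 47 proteasome genes. Psme2 and the chaperone Psmg4 had no probe under those symbols.

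The series compares whole liver of a Twist2-Cre/A20fl/fl mouse group, called CKO, with that of Twist2-Cre mice, called Control, on 2 single-colour microarrays, 1 per genotype, at 24 weeks of age. Twist2-Cre, carried by both genotypes, is a recombinase that acts on floxed alleles in cells of mesenchymal origin. Only the CKO genotype lists such alleles. A20 is the ubiquitin-editing enzyme encoded by Tnfaip3 that restrains NF-kB signalling. How many animals each RNA came from is not stated in the labels. Having 1 array per genotype, the comparison allowed neither a test nor a check across replicates, and this number sets its precision.

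The proteasome degrades ubiquitin-tagged proteins inside a barrel of stacked alpha and beta rings, the 20S core, which the 19S regulatory particle caps, unfolds substrates for and feeds. Peptide bonds are cut by a few beta subunits only. Under interferon-gamma, and constitutively in many blood-derived cells, these catalytic subunits are replaced in newly built cores by Psmb8, Psmb9 and Psmb10, forming the immunoproteasome, whose peptide products favour presentation on MHC class I. The PA28 cap made of Psme1 and Psme2 is induced by the same cytokine. In liver, hepatocytes hold mainly the constitutive form.

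The promoters of the immunoproteasome genes, of Psme1 and of the constitutive genes Psmb5 and Psmb6 are shown because these genes carry the contrast between the 2 forms of the core. Each runs from 250 bases before to 50 bases after the gene's start, 5′ to 3′, from RefSeq on GRCm38.p6. The windows lie at chr17:34197945-34198244 (plus strand) for Psmb8, chr17:34187281-34187580 (minus strand) for Psmb9, chr8:105938343-105938642 (minus strand) for Psmb10, chr14:55578244-55578543 (plus strand) for Psme1, chr14:54617946-54618245 (minus strand) for Psmb5 and chr11:70525107-70525406 (plus strand) for Psmb6. Capitals mark a match, on either strand, to the core of the interferon-stimulated response element (GAAA, any 2 bases, GAAA), the gamma-activated site (TTCNNNGAA) or the core of the antioxidant response element (TGACNNNGC).
Psmb8: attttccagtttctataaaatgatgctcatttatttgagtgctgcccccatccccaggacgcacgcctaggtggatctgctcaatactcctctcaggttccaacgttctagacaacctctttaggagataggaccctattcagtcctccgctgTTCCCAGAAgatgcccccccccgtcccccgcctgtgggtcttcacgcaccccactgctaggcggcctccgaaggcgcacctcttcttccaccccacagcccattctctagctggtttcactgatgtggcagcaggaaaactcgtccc
Psmb9: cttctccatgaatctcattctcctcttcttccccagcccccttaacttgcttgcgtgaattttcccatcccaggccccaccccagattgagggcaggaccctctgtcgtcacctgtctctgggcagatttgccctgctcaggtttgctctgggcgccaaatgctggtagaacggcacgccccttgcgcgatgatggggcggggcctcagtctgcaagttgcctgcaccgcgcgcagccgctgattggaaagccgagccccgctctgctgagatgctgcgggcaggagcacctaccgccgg
Psmb10: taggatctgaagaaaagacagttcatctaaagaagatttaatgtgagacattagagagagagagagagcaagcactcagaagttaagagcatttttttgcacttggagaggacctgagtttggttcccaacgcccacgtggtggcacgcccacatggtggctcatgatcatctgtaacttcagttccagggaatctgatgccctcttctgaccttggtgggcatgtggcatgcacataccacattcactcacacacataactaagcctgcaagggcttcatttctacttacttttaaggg
Psme1: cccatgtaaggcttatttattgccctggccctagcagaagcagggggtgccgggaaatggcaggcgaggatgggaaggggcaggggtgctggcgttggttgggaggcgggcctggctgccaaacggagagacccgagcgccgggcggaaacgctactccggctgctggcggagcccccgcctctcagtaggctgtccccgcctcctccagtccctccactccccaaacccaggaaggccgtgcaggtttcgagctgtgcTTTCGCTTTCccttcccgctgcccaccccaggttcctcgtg
Psmb5: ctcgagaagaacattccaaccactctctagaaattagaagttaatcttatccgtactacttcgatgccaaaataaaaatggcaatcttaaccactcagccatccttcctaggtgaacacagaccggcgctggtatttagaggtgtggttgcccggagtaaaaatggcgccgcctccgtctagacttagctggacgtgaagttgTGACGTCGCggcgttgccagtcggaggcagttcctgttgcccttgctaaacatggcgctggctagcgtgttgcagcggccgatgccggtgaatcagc
Psmb6: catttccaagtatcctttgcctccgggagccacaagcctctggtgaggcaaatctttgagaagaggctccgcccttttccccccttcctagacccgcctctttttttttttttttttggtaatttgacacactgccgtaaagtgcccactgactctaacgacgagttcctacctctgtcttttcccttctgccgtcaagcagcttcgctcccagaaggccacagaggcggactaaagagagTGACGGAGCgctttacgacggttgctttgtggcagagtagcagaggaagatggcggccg

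The gamma-activated site was found in the Psmb8 window, the interferon-stimulated core in that of Psme1, and the antioxidant core in those of Psmb5 and Psmb6, and no match overlapped another. Psmb9 and Psmb10 held none of these letters in their windows, which says nothing of the factors. The table gives 1 start for Psmb10, and whether liver uses that start was not tested. Promoters were given for 41 of the 49 genes, and those of Psma8, Psmb1, Psmb2, Psmb7, Psmc3, Psmd3, Psmd7 and Psmg2 were not in the table. With Psme2 and Psmg4 added and the 2 genes that are no subunit left out, 44 promoters of 41 proteasome genes were read. The interferon-stimulated core was in 1 of the 7 promoters of the immunoproteasome and PA28 genes (Psme2b included) and in 4 of the other 37, against 3.44% of all 32851 promoters. The gamma-activated site was in 1 of the 7 and 2 of the 37, against 8.30% of all promoters. The antioxidant core, the letters read by the Nfe2l1 and Nfe2l2 factors that raise proteasome genes, was in 0 of the 7 and in 6 of the 37, against 12.4% of all promoters. These matches are a description of letters, not of binding.

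The liver label was borne by several hepatocyte markers at the top of the intensity range. Among them albumin had a deposited intensity of 36770 in the CKO and 37445 in the Control liver. Other markers of that list read lower, such as Hnf4a (1051 in CKO, 863 in Control) and Cps1 (133 and 129). Deposited intensities are background-subtracted and scaled per array, on a linear scale. The targeted gene Tnfaip3 was at 38 in the CKO and 41 in the Control liver, and since the part of the transcript its probe reads was not known and only mesenchymal cells are targeted, this checks neither label. Ratios below are log2 of CKO over Control after background correction with an offset, which shrinks differences of dim genes. Among 14143 genes above background on both arrays the median ratio was -0.02, and different probes of the same gene differed by 0.13 (SD, 716 genes). Proteasome transcripts are abundant in this tissue: all 49 genes were above background on both arrays, 46 of them no lower than the median gene. Psma8, the testis form of an alpha subunit (13 in CKO, 12 in Control), the thymus subunit Psmb11 (7 in each liver) and Psmc3ip (8 in each) were the 3 exceptions and lie near background.

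The immunoproteasome subunits were higher in the CKO liver, and no other core subunit reached 1.5-fold in either direction. Psmb9, also called LMP2, had a deposited intensity of 815 in the CKO and 227 in the Control liver. Its ratio was 1.69, a 3.24-fold difference, the 26th highest of the 14143 genes. Psmb8, or LMP7, had 1444 in the CKO and 525 in the Control liver, a ratio of 1.43 (2.69-fold, rank 49). Both genes thus lay among the highest-ranking ratios of the array. Psmb10, or MECL1, had 750 in the CKO and 378 in the Control liver, with a ratio of 0.96 (1.94-fold, rank 103). The median over these 3 subunits was 1.43, beside -0.02 over all genes.

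**Figure D1:**
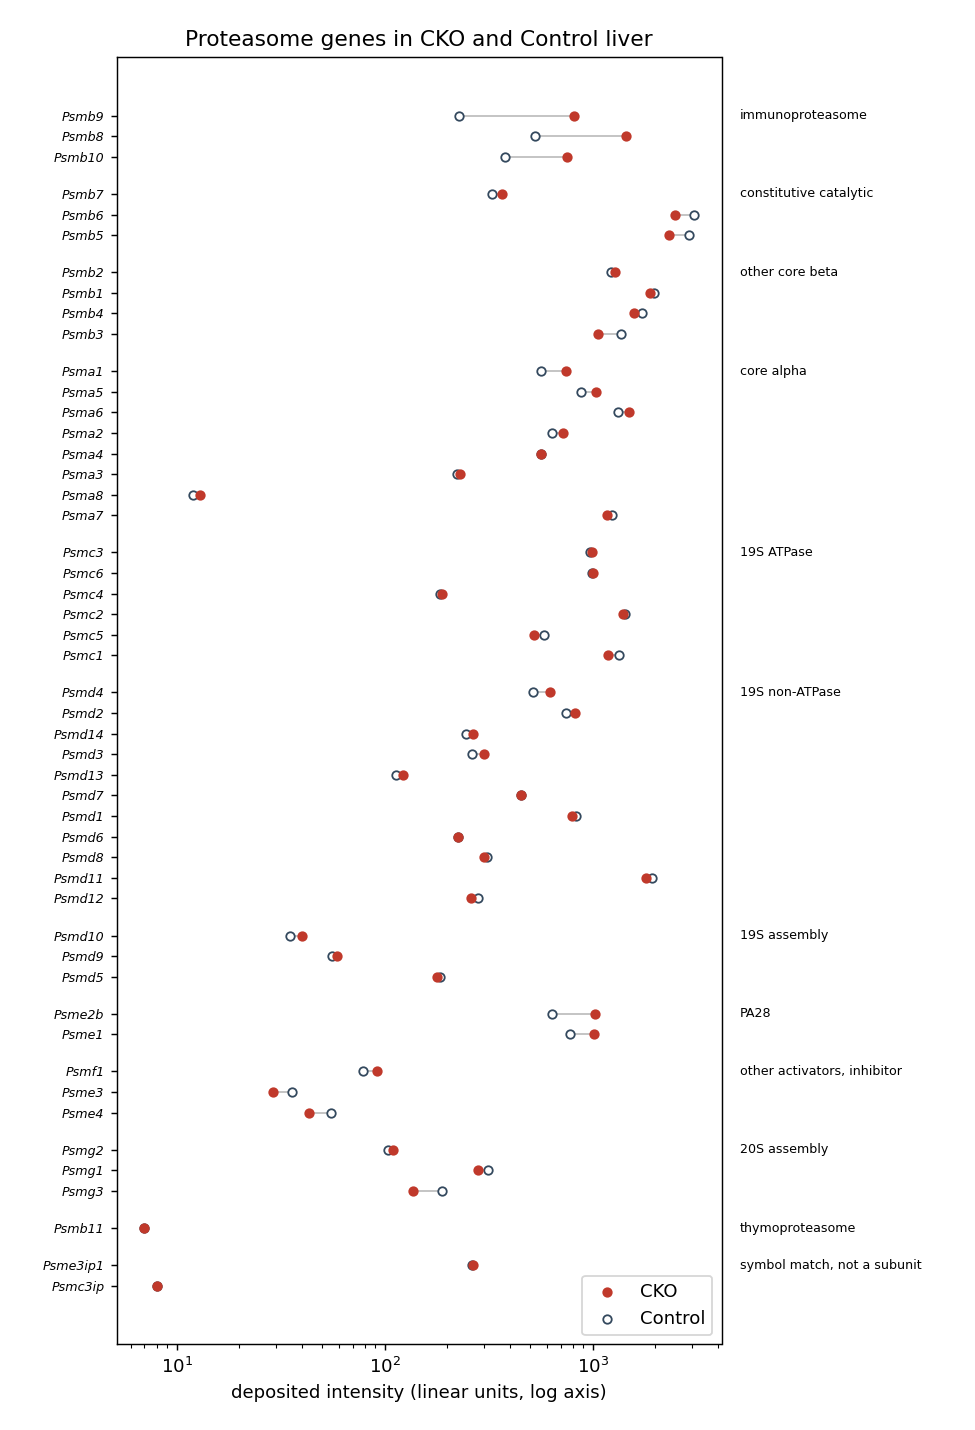
Deposited intensity (linear units on a log axis) of each of the 49 genes in the CKO (filled) and the Control liver (open), grouped by role; genes with several probes are shown by the brightest. The widest gaps are those of Psmb9 (815 and 227) and Psmb8 (1444 and 525), and intensities of different probes are not to be set against each other.

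Members at least 1.5-fold higher in the CKO liver numbered 4 of 49, the 3 immunoproteasome subunits and the probe annotated to Psme2b, beside 1.70% of all genes. At 2-fold there were 2 of 49, Psmb9 and Psmb8, beside 0.636% of all genes. None was 1.5-fold lower, beside 0.417% of all genes, or 2-fold lower, beside 0.0778%. The members nearest the threshold were Psme2b inside it (0.72) and Psme1 outside it (0.50). In the deposited intensities, which are not shrunk, 4 of 49 were again 1.5-fold higher, beside 7.95% of all genes, and 0 were 1.5-fold lower, beside 4.75%. At 2-fold there, 2 of 49 were higher, beside 3.54% of all genes, and 0 lower, beside 0.728%. With the scanner's local background column in place of the blank spots the counts were 15 higher and 7 lower, a setting in which the background followed the spot's own signal (r = 0.972 on the CKO and 0.988 on the Control array, log2 scale across probes).

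The constitutive catalytic subunits, which the 3 inducible ones replace, did not share this difference. Psmb5, the chymotrypsin-like subunit displaced by Psmb8, had a deposited intensity of 2325 in the CKO and 2885 in the Control liver and a ratio of -0.20. Psmb6, the caspase-like subunit displaced by Psmb9, had 2489 in the CKO and 3064 in the Control liver and a ratio of -0.18. Both were slightly lower in the CKO liver, at percentiles 7.66 (Psmb5) and 9.78 (Psmb6) of all genes. In the deposited intensities their log2 ratios were -0.31 and -0.30. Most genes of the array are dimmer, and the offset shrinks their ratios more. Among 2367 genes in the middle of the members' levels, still dimmer than Psmb5 and Psmb6, percentile 5 of the ratio was -0.38 and percentile 95 was 0.44. The SD of 0.13 between probes of the same gene does not measure error between arrays. Psmb7, the trypsin-like subunit displaced by Psmb10, had 364 in the CKO and 328 in the Control liver and a ratio of 0.17. The list's median was -0.18, and -0.80 against the local background column.

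Set pair by pair, each inducible subunit had a higher CKO over Control ratio than its constitutive counterpart. The difference of log2 ratios was 1.87 for Psmb9 minus Psmb6, 1.63 for Psmb8 minus Psmb5 and 0.79 for Psmb10 minus Psmb7, with a mean of 1.43. In the deposited intensities the CKO over Control fold of the inducible subunit was 4.42 times that of Psmb6 for Psmb9, 3.41 times that of Psmb5 for Psmb8, and 1.79 times that of Psmb7 for Psmb10. These compare each gene with itself between livers, and give no ratio of one subunit to the other within a liver. The Psmb10 and Psmb7 pair was the closest, at 0.66 and 0.51 against the local background column.

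**Figure D2:**
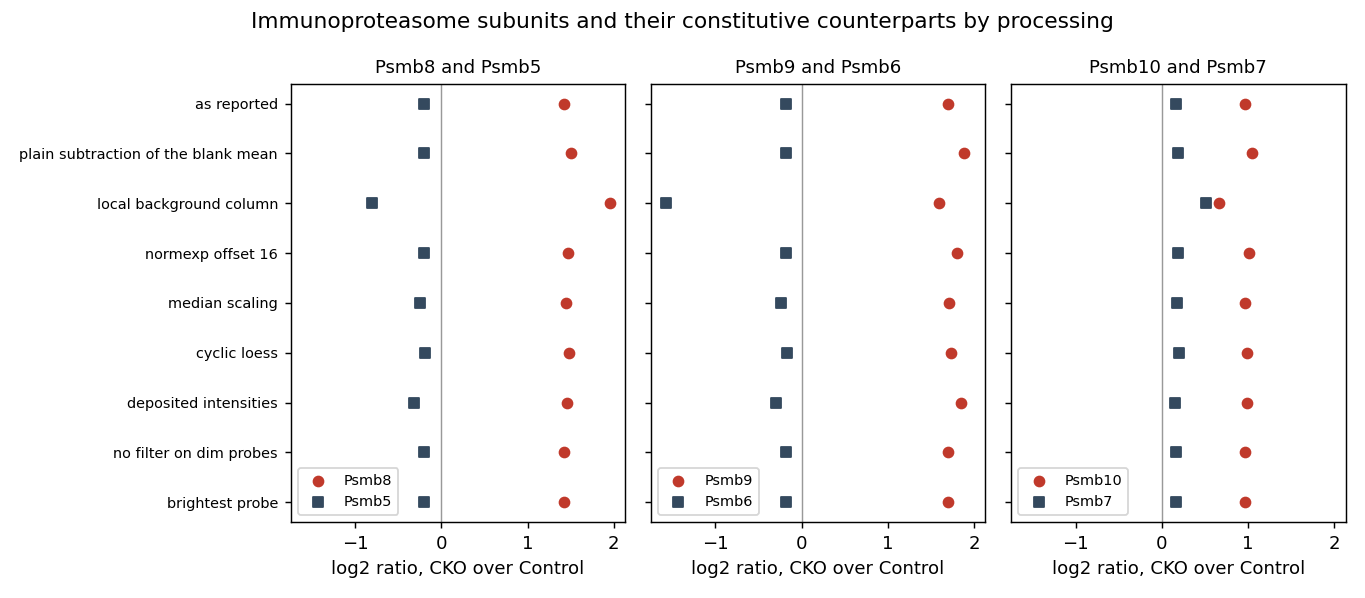
Log2 ratio of CKO over Control (horizontal axis) for each immunoproteasome subunit (circles) and its constitutive counterpart (squares), as reported (top row) and under each of 8 other processing settings. In each panel and row the circle lies to the right of the square; the Psmb10 and Psmb7 pair comes closest against the local background column (0.66 and 0.51).

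The remaining beta subunits, which close the ring without cutting, lay on both sides of 0. Psmb2 had a ratio of 0.13 (1282 in CKO, 1218 in Control), Psmb1 one of 0.01 (1875 and 1970) and Psmb4 one of -0.08 (1574 and 1730). Psmb3 was the lowest core subunit, with a deposited intensity of 1054 in the CKO and 1365 in the Control liver and a ratio of -0.31. The median of these 4 was -0.04, and 0.67 against the local background column.

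The alpha subunits, which form the outer rings and the gate through which substrates enter, were higher in 7 of 8 genes with none past 1.5-fold. Of all 49 members 32 had a positive ratio, beside 42.2% of all genes, and 17 a negative one, beside 57.7%. The median of the alpha subunits was 0.14, and -0.0017 against the local background column. Psma1 led them with a deposited intensity of 741 in the CKO and 561 in the Control liver and a ratio of 0.43, followed by Psma5 (0.29), Psma6 (0.24) and Psma2 (0.23). Psma4 (0.06), Psma3 (0.06) and Psma8 (0.03) were near equal between livers. Psma7 was the lowest, with 1168 in the CKO and 1241 in the Control liver and a ratio of -0.02. The alpha ring therefore held ratios from -0.02 to 0.43, all below the lowest immunoproteasome subunit, except that against the local background column Psma1 (1.21) exceeded Psmb10 (0.66).

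The 19S particle was at similar levels in the 2 livers. Its 6 ATPases, which unfold the substrate and push it into the core, had a median ratio of 0.03 and ranged from -0.11 for Psmc1 (1182 in CKO, 1343 in Control) to 0.11 for Psmc3 (992 and 964). The 11 non-ATPase subunits had a median of 0.04, with 6 higher and 5 lower. Psmd4, a ubiquitin receptor, was highest at 0.30, with 621 in the CKO and 514 in the Control liver, and the scaffold Psmd2 followed at 0.20. Psmd14, the deubiquitinase of the lid, had a ratio of 0.11 (265 in CKO, 246 in Control). Psmd12 was lowest at -0.07 (260 and 280). No 19S subunit reached 1.5-fold as reported. Against the local background column several did, upward for Psmd2 (2.52), Psmc2 (2.48) and Psmd4 (1.96), and downward for Psmd11 (-2.25) and Psmc3 (-1.26). There Psmd2, Psmc2 and Psmd4 exceeded every immunoproteasome subunit, the highest being Psmb8 (1.95). Psmd3, Psmd5 and Psmd8 each had a second, dim probe of 4 to 7 units that is averaged into the gene's value; the brighter Psmd3 probe alone had a ratio of 0.20, against 0.11 for the gene. Psmd5, Psmd9 and Psmd10, chaperones that help assemble the 19S base and leave it, had ratios of 0.01, 0.04 and 0.09.

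**Figure D3:**
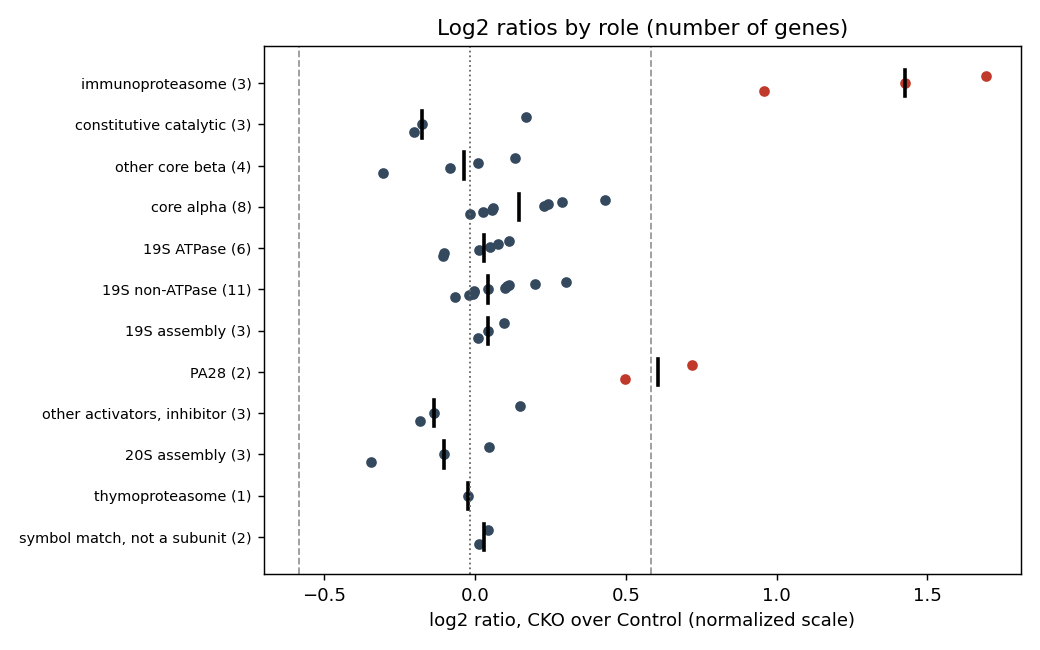
Log2 ratio of CKO over Control (horizontal axis, normalized scale) of each gene by role, with the median of each role (black bar), the median of all genes (dotted line, -0.02) and 1.5-fold in either direction (dashed lines). The immunoproteasome (0.96 to 1.69) stands to the right of the upper dashed line, the PA28 genes lie on either side of it, and the other roles lie between the dashed lines.

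PA28, the ring that caps the core and opens its gate without ATP, was higher in the CKO liver but less so than the immunoproteasome subunits. The 2 probes of Psme1 had deposited intensities of 1008 and 761 in the CKO liver, against 780 and 514 in the Control liver. Their ratios of 0.42 and 0.57 give a gene value of 0.50, or 1.41-fold. The probe annotated to Psme2b had 1023 in the CKO and 639 in the Control liver, with a ratio of 0.72 (1.65-fold). Psme2b is a near-identical retrocopy of Psme2, so the signal of that probe cannot be assigned to either gene. The PA28 genes had a median of 0.61, and of 0.93 against the local background column, where Psme1 (0.73) and Psme2b (1.13) exceeded Psmb10 (0.66).

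The other activators and the inhibitor were dim. Psme3, the nuclear PA28-gamma, had a deposited intensity of 29 in the CKO and 36 in the Control liver and a ratio of -0.14. Psme4, or PA200, had 43 in the CKO and 55 in the Control liver and a ratio of -0.18, and the inhibitor Psmf1 had 92 and 79 and a ratio of 0.15. Neither of these other activators was thus higher with Psme1. Of the chaperones that pair up to build the alpha ring, Psmg3 had the lowest ratio of all 49 genes, -0.35, with 137 in the CKO and 188 in the Control liver. Its companions Psmg1 (-0.10) and Psmg2 (0.05) were close to equal, and the list's median was -0.10.

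Taking all 42 genes outside the immunoproteasome, PA28 and the 2 non-subunits, 25 were higher and 17 lower, with a median of 0.03 and an SD of 0.16. Their deposited folds of CKO over Control ranged from 0.729 for Psmg3 to 1.32 for Psma1, with 21 above 1, 20 below and 1 equal. The immunoproteasome thus differed between the livers while the bulk of the particle's transcripts lay within 1.5-fold. Most genes of the array did so too, with 1.70% of all genes past that limit upward and 0.417% downward. Lying within it therefore does not set the bulk of the particle apart from other genes. Of the 47 proteasome genes, 34 had ratios within 0.2 of 0, a range that held 84.1% of all 14143 genes and 65.3% of the 2367 genes in the middle of the members' levels.

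**Figure D4:**
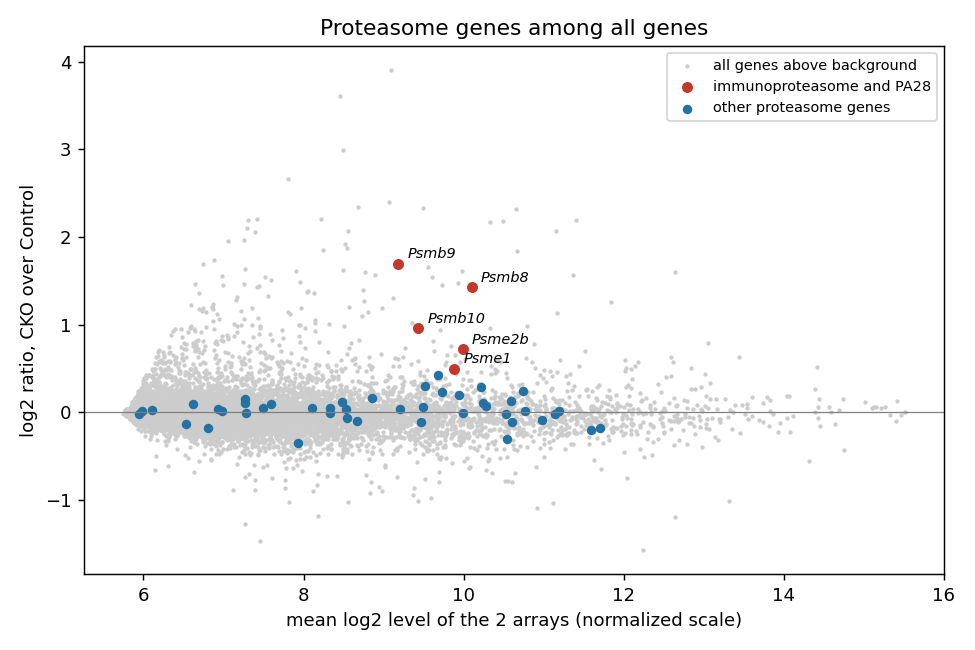
Log2 ratio of CKO over Control (vertical axis) against the mean log2 level of the 2 arrays (horizontal axis) for the 14143 genes above background (grey), the immunoproteasome and PA28 genes (red) and the other proteasome genes (blue). The 3 immunoproteasome subunits lie at 0.96 to 1.69 above most genes of their level, and the blue points lie between -0.35 and 0.43.

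Partners listed beside the subunits lay on both sides of 0. Of 19 such genes with a probe 10 were higher and 9 lower, none past 1.5-fold, with a median of 0.01. In the deposited intensities 1 of them was past 1.5-fold, beside 7.95% of all genes. It was Akirin2, a factor for nuclear import of proteasomes, at 55 in the CKO and 23 in the Control liver. Pomp, the maturation factor that core assembly needs and that favours immunoproteasome building, had a deposited intensity of 982 in the CKO and 892 in the Control liver and a ratio of 0.19. Nfe2l1, the transcription factor that raises all subunits when proteolysis falls short, had 114 and 112 and a ratio of 0.02.

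Genes that act with the immunoproteasome differed in the same direction in part. Of 11 genes of MHC class I peptide loading 8 were higher in the CKO liver, beside 42.2% of all genes, with a median of 0.27. Past 1.5-fold were 2 of the 11, beside 1.70% of all genes. H2-D1, counted among the 8, lay near background (5 in CKO, 4 in Control). Deposited intensities were averaged over the probes of a gene on the log2 scale. By them 4 of the 11 were at least 1.5-fold higher, beside 7.95% of all genes. The 2 were the class I heavy chain H2-K1 (0.79, 9152 in CKO and 5582 in Control) and the peptide transporter subunit Tap1. Of 10 genes of interferon-gamma signalling with a probe 9 were higher, 2 past 1.5-fold, with a median of 0.22. In the deposited intensities 7 of the 10 were at least 1.5-fold higher, beside 7.95% of all genes. These 7 include Ifngr1 (108 in CKO, 72 in Control) and Nlrc5 (18 and 12), which lie at the limit, and the dim Socs1 (28 and 5). Irf1, a transcription factor that interferon-gamma induces and that acts on immunoproteasome genes, had a deposited intensity of 722 in the CKO and 348 in the Control liver and a 2.03-fold difference. Irf8, a factor of myeloid and B cells, had 99 and 33 and a ratio of 0.88. Ifng itself was near background, at 11 in the CKO and 4 in the Control liver.

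By RefSeq gene order, Psmb9 and Psmb8 lie within the MHC class II region of chromosome 17, alternating with the transporter genes Tap1 and Tap2. Tap1, between them, had a deposited intensity of 54 in the CKO and 14 in the Control liver and a ratio of 0.73. Tap2, next to Psmb8, had 117 and 68 and a ratio of 0.52. Further out, H2-DMb1 (236 in CKO, 85 in Control) and H2-Ab1 (584 and 109) were higher as well, while Brd2 (401 and 512) was lower. H2-Ob was dim (15 and 18), with a ratio of -0.07. Psmb10 lies on chromosome 8. Of its nearest neighbours, the lipid enzyme gene Lcat (748 in CKO, 746 in Control, ratio 0.06) was close to equal between livers. The other, the chymotrypsin-like protease gene Ctrl (6 and 7, ratio -0.03), lay near background. Psme1 lies on chromosome 14 with Psme2, and the gene between them, Emc9, had a ratio of -0.08. On its other side lies Fitm1, with 183 in the CKO and 141 in the Control liver and a ratio of 0.31. Irf9, an interferon signalling factor beyond Psme2, had 100 and 65 and a ratio of 0.39.

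**Figure D5:**
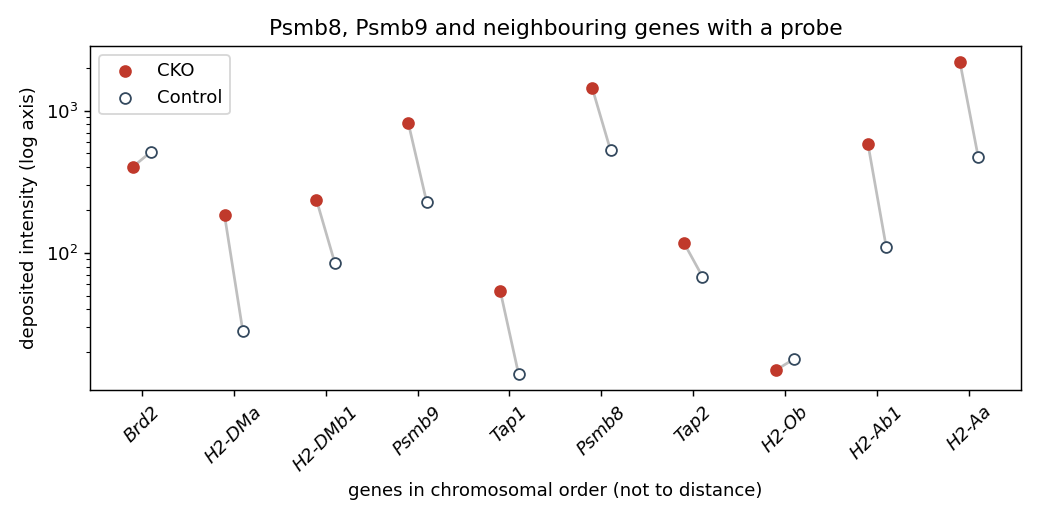
Deposited intensity (vertical log axis) in the CKO (filled) and the Control liver (open) of Psmb9, Psmb8 and the neighbouring genes with a probe, in chromosomal order and not to distance. Psmb9, Tap1, Psmb8 and Tap2 are all higher in the CKO liver, and Brd2 (401 and 512) and H2-Ob (15 and 18) are not.

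Many blood-derived cells express the immunoproteasome constitutively. Pan-leukocyte, macrophage and T cell markers were higher with it in the CKO liver, while most B cell markers with a probe lay near background. All 8 pan-leukocyte markers were at least 1.5-fold higher in the CKO liver, a size that 1.70% of all genes reached. Their median ratio was 0.97, with a summed deposited intensity of 1933 in the CKO and 664 in the Control liver. Of 10 macrophage markers 9 were above background on both arrays and all 9 were higher, 8 of them past 1.5-fold (median 1.30, sum of these 9 6575 in CKO and 1979 in Control), with Adgre1 near background. Of 6 T cell markers 4 were above background on both arrays and higher (median 0.44, sum of these 4 137 and 37), with Cd3e and Cd3g not above background on both. Of these 4 only Cd8b1 (34 in CKO, 3 in Control, ratio 0.71) was past 1.5-fold, and Cd4 (8 and 6) lay near background. The 3 B cell markers with a probe had a median of 0.02 (sum 68 and 57). Cd79a (8 in each liver), which gave this median, and Ms4a1 (9 in CKO, 10 in Control) lay near background. Cd79b (51 and 39) had a ratio of 0.20. The 7 hepatocyte markers with a probe had a median of 0.03 (sum 129307 and 142836). The endothelial list had a median of -0.43 (sum 784 in CKO and 1182 in Control) and the mesenchymal list one of 0.02 (998 and 1461). Of the 5 mesenchymal genes 3 were higher and 2 lower. Most of their sum was Dcn (918 in CKO, 1387 in Control, ratio -0.52). Lrat, which gave the median, Reln and Col1a1 lay near background. The part of these cell types in the difference of the immunoproteasome was not tested. In whole liver more cells of a type and more RNA per cell cannot be told apart.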

How the data were processed

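Total RNA of liver was amplified, labelled with Cy5 and hybridised to single-colour arrays, per the labels' protocols. Per the file headers, the scanner output gives a median intensity for every spot and for its surroundings, from 3 gains joined by least-squares lines. The deposited value table holds intensity on a linear scale; how the authors made it is not stated in the labels. Set against the scanner values, an entry is close to the spot minus the trimmed mean of the 384 blank spots, times 0.825 on the CKO and 0.859 on the Control array, rounded, to within 0.534 and 0.779 for probes with 1 spot; 1 probe has more. It has a median of 25 for either array and is not centred on genes.

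Flagged spots (0 CKO, 4 Control) were left out. Spot intensities were corrected with normexp (limma 3.58.1, R 4.3.3) against the mean of the blank spots (69.3 CKO, 67.2 Control) with an offset of 50, control spots were dropped, and arrays were quantile-normalized on the log2 scale. A gene is the mean of its probes, and was above background when a probe exceeded the blank mean plus 2 SD (72.2 CKO, 69.5 Control) on both arrays, as 73.6% of CKO and 73.8% of Control probes did on their array. Positive control spots varied by 0.15 and 0.14 (CKO) and by 0.17 and 0.19 (Control; SD of log2). Probes were named from the platform annotation: 20686 had 1 symbol, 0 several and 2783 none; Entrez IDs of 20552 matched RefSeq, and 0 symbols needed an update. The normalization was tested on simulated arrays, for the order of changes in brighter genes and not for their size.

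With 1 array per genotype, genes were counted past 1.5-fold and 2-fold without a test. Named genes were the catalytic subunits of both forms, the PA28-type activators, and the highest and lowest ratio of each other role. List members past 0.58 in absolute log2 ratio were named too, with a few set in advance. Akirin2 and Socs1 fell short. They, Ifngr1, Nlrc5 and H2-D1 are named for their deposited values, after these were seen. Other genes are named as further members by role, as chromosomal neighbours or as markers. The members and lists were chosen with earlier results of these data known. The 8 processing alternatives were tried.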

Additional observations from a re-analysis of the deposited data

How the results depend on the processing

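No paired analysis was possible because each genotype has 1 array. Under 7 alternatives (plain subtraction of the blank mean, an offset of 16, median scaling, cyclic loess, the deposited intensities, no filter on dim probes, the brightest probe) 4 members were at least 1.5-fold higher and 0 lower, as reported. There the PA28 median ranged from 0.57 to 0.64, and the mean difference of the 3 pairs ranged from 1.43 to 1.58, the last in the deposited intensities. The local background column moved most values: the medians were 1.60 for the immunoproteasome, -0.80 for constitutive catalytic, -0.0017 for alpha, 0.67 for other beta, -0.13 for 19S ATPase, -0.093 for 19S non-ATPase and 0.93 for PA28 genes, the pair difference was 2.03, and 15 members were higher and 7 lower. There 38 of 49 single-gene ratios moved by more than the difference between probes of the same gene, against 7 of 245 under the 5 alternatives that can move every member (not the filter, since all 49 genes pass it, or the brightest probe). The 4 members past 1.5-fold as reported kept their sign in each setting, while others did not: against the local background column Psmc3 was at -1.26 and Psmg1 at 0.87. The cause was not tested. Genes near background, such as Psmb11, have ratios of little weight.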
